A study of Mus musculus with 9 samples.

Results

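The Ly6 surface antigens are small proteins of a shared fold, most of them held on the outer face of the cell by a glycosylphosphatidylinositol (GPI) lipid anchor. In the mouse many of their genes lie side by side on chromosome 15, and the proteins are long-standing flow cytometry markers: Ly6C for inflammatory monocytes and antigen-experienced CD8 T cells, Ly6G for neutrophils, and Ly6A, also called Sca-1, for blood stem cells and activated lymphocytes. Several are inducible by interferons in T cells. The 8 genes listed were Ly6a, Ly6c1, Ly6c2, Ly6d, Ly6e, Ly6g, Ly6i and Ly6k, taken by symbol from a deposited table of 23946 genes. Of these, 7 had a row, and 6 passed a filter of at least 1 FPKM (a fragment count per kilobase, scaled to library size) in at least 3 of 9 libraries. Ly6i did not pass it, and Ly6g was not analysed here. The family was chosen on the strong change of Ly6c2 FPKM between these groups, so the values of Ly6c2 are given as a description, with no test.

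The data are 9 RNA-seq libraries from sorted mouse CD8 T cells, 3 in each of 3 groups. The donors carried hCD2-Cre, a Cre recombinase driven by human CD2 control sequences, and a Rosa26-lsl-GFP reporter that Cre switches on. The WT group had wild-type target alleles, the CTCF KO group had floxed Ctcf alleles and the genotype label CTCF-/-, and the DKO group had floxed Tcf1 and Lef1 alleles and the label Tcf1-/-Lef1-/-. CTCF is a DNA-binding protein that organises chromatin loops, and Tcf1 (encoded by Tcf7) and Lef1 are related transcription factors of T cells. Naive cells, depleted of CD44-high cells, were stained with the division dye CTV and given to Rag1 KO hosts, which lack B and T cells of their own but keep their myeloid cells. CTV+ GFP+ TCRβ+ CD8+ cells were sorted from the spleen 72 h later, after homeostatic proliferation. Source names also read "stim CD8", with no other stimulus described. No label states that libraries within a group had separate donors, so the p-values reflect library spread that may be technical.

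The libraries had between 9613 and 9832 genes at 1 FPKM or more, and their depth is unknown because the table holds no counts. The 5 CD8 T cell markers (Cd3e, Cd3d, Cd3g, Cd8a and Cd8b1) summed to 4614 to 5420 FPKM in every library. Lef1 fell in the libraries labelled DKO (log2 change -1.92, limma adjusted p = 1.35e-08). Tcf7 did not fall in those libraries but rose (log2 change 0.42, limma adjusted p = 0.000223), and Ctcf in the libraries labelled CTCF KO had a log2 change of -0.33 that was not called (limma adjusted p = 0.319). FPKM is given per gene, so it does not show whether the floxed part of a gene was lost. CTCF KO and DKO are therefore used below as the names on the labels. Summed FPKM of 4 Y-linked genes was 90.0 to 100.9 in the CTCF KO libraries and at most 2.03 in the WT and DKO libraries, so the sex of the donors and the CTCF KO label cannot be told apart.

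Ly6c1 and Ly6c2 encode near-identical proteins that antibodies to Ly6C bind, and their sequences bear on how far their values can be separated. In the principal transcripts of the GENCODE annotation of GRCm38, each had 396 coding bases including the stop codon, of which 387 were identical (97.7%). The first 150 coding bases are shown 5′ to 3′, with capitals for the 6 positions at which the pair differ.
Ly6c2: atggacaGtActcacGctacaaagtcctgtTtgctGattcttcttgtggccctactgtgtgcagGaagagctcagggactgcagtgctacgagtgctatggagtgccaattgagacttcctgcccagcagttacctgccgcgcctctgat
Ly6c1: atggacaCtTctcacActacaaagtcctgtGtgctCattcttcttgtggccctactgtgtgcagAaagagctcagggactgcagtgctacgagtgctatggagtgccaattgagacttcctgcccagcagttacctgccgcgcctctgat
Of all 50-base windows in the transcripts, 252 were shared, which is 31.7% of those of Ly6c1 and 32.6% of those of Ly6c2. Fragments from the shared stretches can be assigned to either gene, so the division of signal between the pair is uncertain, and more so for the lower gene. The next closest pair was Ly6a and Ly6i (86.4% identical coding bases). Ly6a shared 82.0% with Ly6c1 and 81.7% with Ly6c2, whereas Ly6c2 shared 49.0% with Ly6e, 48.7% with Ly6d and 39.1% with Ly6k.

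Upstream of the start, the pair differed more than in the coding sequence. RefSeq start windows (250 bases before to 50 after the start, GRCm38.p6) were found for Ly6c1 and Ly6c2 among the genes with a row. The aligned parts are shown because Ly6c2 changed by far more than Ly6c1. Both are on the minus strand and printed 5′ to 3′, at chr15:75111943-75112221 for Ly6c2 and chr15:75048788-75049056 for Ly6c1. Capitals mark bases that are substituted or gapped in the alignment.
Ly6c2: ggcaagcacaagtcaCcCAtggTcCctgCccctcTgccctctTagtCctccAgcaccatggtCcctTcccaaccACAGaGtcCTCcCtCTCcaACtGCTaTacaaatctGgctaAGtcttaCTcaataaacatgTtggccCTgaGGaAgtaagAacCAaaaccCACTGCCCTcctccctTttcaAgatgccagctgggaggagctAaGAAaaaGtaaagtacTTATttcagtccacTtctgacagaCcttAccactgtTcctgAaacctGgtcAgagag
Ly6c1: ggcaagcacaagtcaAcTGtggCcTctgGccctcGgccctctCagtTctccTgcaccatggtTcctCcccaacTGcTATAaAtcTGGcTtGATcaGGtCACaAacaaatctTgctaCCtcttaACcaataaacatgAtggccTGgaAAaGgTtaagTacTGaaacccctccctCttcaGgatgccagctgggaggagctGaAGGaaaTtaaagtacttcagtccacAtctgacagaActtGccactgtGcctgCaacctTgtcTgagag
Of 282 aligned columns, 208 were identical (73.8%), 58 were substituted and 16 were gapped. Short motifs were counted on both strands of the whole windows. The TCF/LEF core, searched as CTTTGAA and in the further spellings CTTTGTT, also allowed as CTTTGAT and lastly as CTTTGTA, matched neither gene, and 16.9% of all 32851 RefSeq windows hold it. The interferon gamma activated site TTCNNNGAA (8.3% of all windows) and the interferon-stimulated response element core GAAANNGAA (8.6%) matched neither. The RUNX core TGTGGT had 1 match in Ly6c2 and 0 in Ly6c1 (16.8% of all windows), and the ETS core GGAAGT had 2 in Ly6c2 (23.8% of all windows). For Ly6c1 the ETS core had 0 matches in 1 RefSeq window and 1 in the window of its other start. These are matches of letters, and say nothing on whether a factor binds there or elsewhere.

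Ly6c2 was the most abundant member in WT cells and the member that differed most between groups. Its FPKM was 838, 875 and 685 in the WT libraries, 374, 322 and 361 in CTCF KO and 21.1, 19.3 and 18.1 in DKO. The 3 groups did not overlap, and the order WT, CTCF KO, DKO held for every library. The means were 799 ± 101, 352 ± 27.0 and 19.5 ± 1.51 FPKM (SD, n = 3 each). They were 2.27-fold lower in CTCF KO than in WT, 41.0-fold lower in DKO than in WT and 18.1-fold lower in DKO than in CTCF KO. By mean level Ly6c2 ranked 120 of 23946 genes in WT, 336 in CTCF KO and 4666 in DKO. On the log2(FPKM + 1) scale its difference was -1.17 in CTCF KO, place 115 among the falls of 10172 tested genes, and -5.28 in DKO, place 2. In these bulk libraries, fewer cells carrying a transcript and less transcript per cell cannot be told apart.

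**Figure D1:**
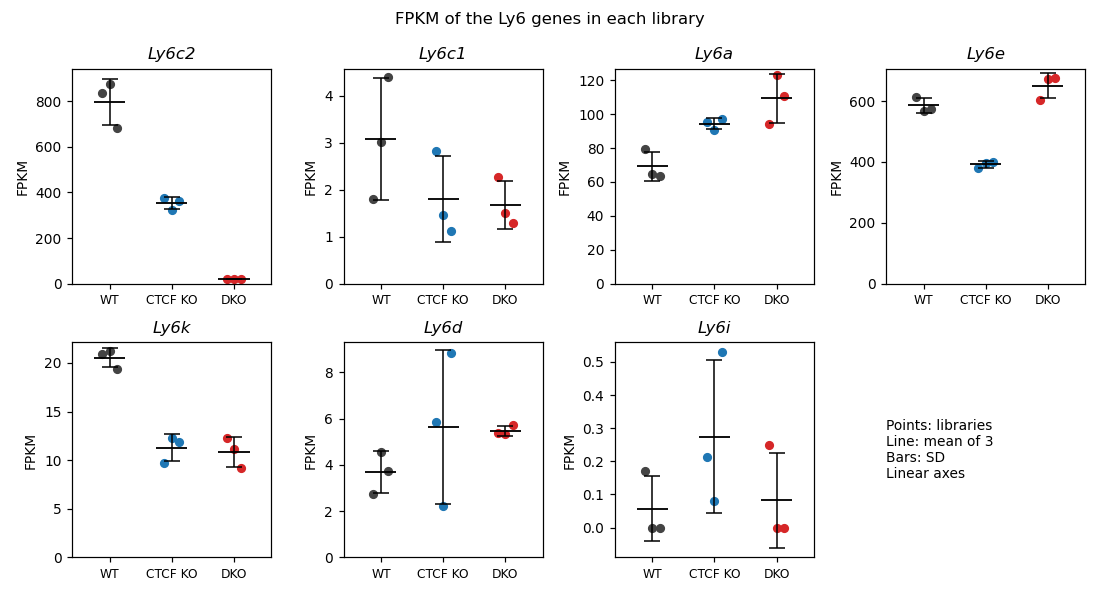
FPKM (linear axes, a separate scale for each gene) of the 7 members with a row, in the WT, CTCF KO and DKO groups. Points are libraries, lines are means of 3 and bars are SD; Ly6c2 descends from 799 to 352 to 19.5 FPKM, Ly6e is lowest in CTCF KO and Ly6a is lowest in WT.

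Ly6C is also carried by myeloid cells, and most tested neutrophil transcripts, like Ly6c2, were lower in CTCF KO and DKO than in WT. Against WT, 5.78% of all tested genes rose and 6.37% fell in CTCF KO, and 18.5% rose and 21.9% fell in DKO. Of 14 neutrophil markers 7 were tested, and 6 fell in CTCF KO and 7 in DKO against WT. Their sum over all 14 was 45.8 to 60.4 FPKM in WT, 16.3 to 21.5 in CTCF KO and 1.30 to 1.87 in DKO, with Elane, a neutrophil granule protease, at 0 in every WT and CTCF KO library. In DKO, Camp, Lcn2, Elane, Retnlg, Mmp8 and Cd177 were listed at 0. The summed neutrophil signal fell in the same group order as Ly6c2, at lower FPKM in each group. Levels of different genes do not show how much of the Ly6c2 signal came from neutrophils. The 15 monocyte and macrophage markers with a row, the other cells known for Ly6C, summed to 149 to 159 FPKM in WT, 151 to 169 in CTCF KO and 156 to 177 in DKO, and none was listed at 0 throughout a group. Of 13 tested, 1 rose and 2 fell in CTCF KO against WT, and 4 rose and 1 fell in DKO against WT. Ccr2, a receptor of monocytes high in Ly6C, was at 5.99 FPKM in WT, 2.45 in CTCF KO (limma adjusted p = 0.000965) and 4.72 in DKO (0.0978). Lyz2, the lysozyme of myeloid cells, fell from 30.3 FPKM to 18.8 in CTCF KO (limma adjusted p = 0.0125) and 19.5 in DKO (0.00608). Plasmacytoid dendritic cells carry Ly6C too, and their 7 markers summed to 169.7 to 181 FPKM in WT, 138 to 167 in CTCF KO and 242 to 246 in DKO. Most of that sum was Bst2, and of 6 tested, 1 rose and 1 fell in CTCF KO and 2 rose and 2 fell in DKO. Siglech, a defining receptor of these cells, was at 2.35 FPKM in WT, 1.49 in CTCF KO (limma adjusted p = 0.0878) and 1.02 in DKO (0.00375). NK cells, which Rag1 KO hosts keep, also carry Ly6C. Their 8 markers summed to 3209 to 3558 FPKM in WT, 3114 to 3266 in CTCF KO and 5127 to 5855 in DKO, most of it Nkg7, a gene that CD8 T cells also express. Of 7 tested, 0 rose and 3 fell in CTCF KO by limma (0 above and 4 below at an unadjusted p under 0.05, and 2 called by q-value in the authors' deposited table), and 2 rose and 2 fell in DKO. Ncr1, the defining receptor NKp46, was at 1.32, 0.957 and 0.970 FPKM in WT, CTCF KO and DKO. Klra7 was at 8.57, 3.48 and 0.687 FPKM in these groups, Klre1 at 9.35, 0.678 and 0.601, and Gzma at 26.0, 9.07 and 709. The part of these cells in the Ly6c2 values was not tested.

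Ly6c1 stayed at a low level throughout. It was at 1.80, 3.02 and 4.40 FPKM in WT, 2.83, 1.45 and 1.12 in CTCF KO and 2.26, 1.49 and 1.29 in DKO, and all 3 groups overlapped. Its log2 difference from WT was -0.54 in CTCF KO (95% interval -1.19 to 0.11, limma adjusted p = 0.288) and -0.57 in DKO (-1.22 to 0.08, adjusted p = 0.142). A gene this low cannot show on the log2(FPKM + 1) scale a fall as large as that of Ly6c2 in DKO. Ly6c1 made up 0.399% of the summed FPKM of the pair in WT, 0.503% in CTCF KO and 7.83% in DKO. The sum of the pair, which does not depend on how shared fragments were divided, was 802 ± 99.9 FPKM in WT, 354 ± 27.5 in CTCF KO and 21.2 ± 2.02 in DKO (SD, n = 3 each).

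Ly6a, which encodes Sca-1, ran opposite to Ly6c2. Its FPKM was 79.3, 64.5 and 63.6 in WT, 95.4, 90.7 and 97.1 in CTCF KO and 94.3, 123 and 111 in DKO. Every CTCF KO and DKO library was above every WT library, and the CTCF KO and DKO libraries overlapped. Ly6a rose 1.58-fold in DKO against WT (log2 change 0.65 ± 0.11 SE, limma adjusted p = 0.00151). It rose 1.36-fold in CTCF KO against WT (log2 change 0.45 ± 0.11 SE, limma adjusted p = 0.0294). The CTCF KO call rests on the setting: it held in 7 of 15 alternatives, with adjusted p from 0.0126 to 0.126, and leaving out any CTCF KO library, or WT library 2 or 3, ended it. The q-value for it in the authors' deposited table was 0.0762, whereas the DKO call had a q-value of 0.0021 in the authors' deposited table. Endothelium is known for Ly6a, and its 9 markers summed to 41.2 to 42.9 FPKM in WT, 47.8 to 52.3 in CTCF KO and 33.8 to 36.4 in DKO. Most of that sum was Pecam1, at 33.9, 41.2 and 27.1 FPKM in WT, CTCF KO and DKO. Cdh5, Kdr, Tek, Tie1 and Vwf were each under 1 FPKM in every library. The part of endothelial cells in the Ly6a values was not tested. Ly6a in DKO exceeded CTCF KO by 0.20 on the log2 scale, which was not called (95% interval -0.05 to 0.45, limma adjusted p = 0.177).

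Ly6e, also known as thymic shared antigen 1 and as an interferon-inducible factor that restricts entry of some viruses, was lowest in CTCF KO. Its FPKM was 615, 568 and 576 in WT, 379, 397 and 401 in CTCF KO and 603, 671 and 677 in DKO. Every CTCF KO library was below every other library, and the WT and DKO libraries overlapped. Against WT the log2 change in CTCF KO was -0.58 ± 0.06 SE (limma adjusted p = 0.000348), and this call held in 15 of 15 alternatives. The log2 difference between DKO and WT was 0.15 (95% interval 0.02 to 0.28, limma adjusted p = 0.068). That difference was called higher in 3 of 14 alternatives: with quantile normalization (0.33, adjusted p = 0.000618), with median-of-ratios scaling (0.16, adjusted p = 0.0466) and without DKO library 1 (0.20, adjusted p = 0.0243). It was lowest, at 0.06 (limma adjusted p = 0.556), with each library's trend with transcript GC content removed. The direct comparison of DKO with CTCF KO gave a log2 change of 0.73 ± 0.06 SE (limma adjusted p = 1.77e-05). With Ly6c2 low, Ly6e was the most abundant member in CTCF KO and in DKO, where it ranked 288 and 136 of 23946 genes.

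Ly6k, known in mice for a role in sperm function, fell in both CTCF KO and DKO. Its FPKM was 20.9, 21.3 and 19.4 in WT, 9.69, 12.3 and 11.8 in CTCF KO and 12.3, 11.1 and 9.23 in DKO. Every WT library was above every CTCF KO and DKO library, which overlapped each other. The log2 change was -0.82 ± 0.13 SE in CTCF KO (limma adjusted p = 0.00316) and -0.87 ± 0.13 SE in DKO (limma adjusted p = 0.00063). DKO and CTCF KO differed by -0.05 (95% interval -0.33 to 0.24, limma adjusted p = 0.788), and differences within that interval are not detectable here.

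Ly6d, known as a marker of early B-lineage commitment, was low and variable. It was at 2.75, 4.55 and 3.74 FPKM in WT, 5.87, 2.21 and 8.83 in CTCF KO and 5.36, 5.35 and 5.73 in DKO. CTCF KO overlapped both other groups, with library 2 below and libraries 1 and 3 above every WT and DKO library. The DKO libraries were all above the WT libraries, as 54.1% of tested genes do in either direction for that comparison, and the log2 difference of 0.49 was not called (95% interval -0.29 to 1.27, limma adjusted p = 0.284). In CTCF KO the log2 difference from WT was 0.38 (-0.40 to 1.16, adjusted p = 0.566), and it was 0.83 without CTCF KO library 2 (adjusted p = 0.0502) and 0.02 without CTCF KO library 3 (adjusted p = 0.976). Ly6i, a close relative of Ly6a in sequence, was listed at 0.171, 0 and 0 FPKM in WT, 0.212, 0.0797 and 0.529 in CTCF KO and 0.248, 0 and 0 in DKO, and it was not tested.

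Calls among the 5 tested members other than Ly6c2, whose change chose the family, went in both directions. In CTCF KO against WT, limma called 3 of 5, Ly6a higher and Ly6e and Ly6k lower, where 12.2% of 10172 tested genes were called, 5.78% higher and 6.37% lower. In DKO against WT it called 2 of 5, Ly6a higher and Ly6k lower, where 40.4% of tested genes were called, 18.5% higher and 21.9% lower. In DKO against CTCF KO it called 1 of 5, Ly6e higher, where 38% were called, 16.2% higher and 21.8% lower. The shares in both DKO comparisons were thus near to or below those of all genes. The groups did not overlap for 3 of the 5 in CTCF KO against WT (30.4% of tested genes), for 3 in DKO against WT (54.1%) and for 1 in DKO against CTCF KO (52.4%). By q-value under 0.05 in the authors' deposited table, 2 of the 5 were called in CTCF KO against WT (9.48% of tested genes), 2 in DKO against WT (28.9%) and 1 in DKO against CTCF KO (28.1%). The median log2 difference of the 5 was -0.54, 0.15 and 0.11 in these comparisons, against 0.01, 0.01 and -0.02 over all tested genes. The comparisons with WT share the WT libraries, and those with DKO or CTCF KO share theirs.

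**Figure D2:**
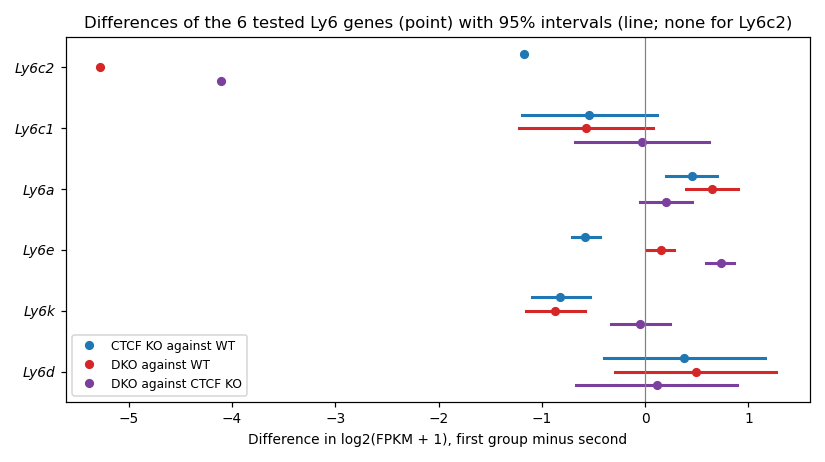
Differences in log2(FPKM + 1) of the 6 tested members (points) with 95% intervals (lines; none for Ly6c2, which chose the family) for the 3 comparisons, first group minus second. Ly6c2 lies at -1.17, -5.28 and -4.11, Ly6a is above 0 against WT in both CTCF KO and DKO, and Ly6e is at -0.58 in CTCF KO and 0.15 in DKO.

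Both the total and the makeup of the family's transcripts differed between groups. Summed over the 7 rows, FPKM was 1482 ± 113 in WT, 859 ± 28.8 in CTCF KO and 798 ± 51.0 in DKO (SD, n = 3 each), and every CTCF KO and DKO library lay below every WT library. Without Ly6c2 the sum was 682 ± 32.2 in WT, 506 ± 13.9 in CTCF KO and 778 ± 52.4 in DKO, where library 1 (718) overlapped WT library 1 (719). Ly6c2 accounted for 53.8% of the family's FPKM in WT, 41.0% in CTCF KO and 2.46% in DKO. The share of Ly6e was 39.7%, 45.8% and 81.6%, and that of Ly6a was 4.67%, 11.0% and 13.7%. As shares of a total, they rise for the other members when Ly6c2 is low, so they are a description of the makeup and not of change in each gene.

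**Figure D3:**
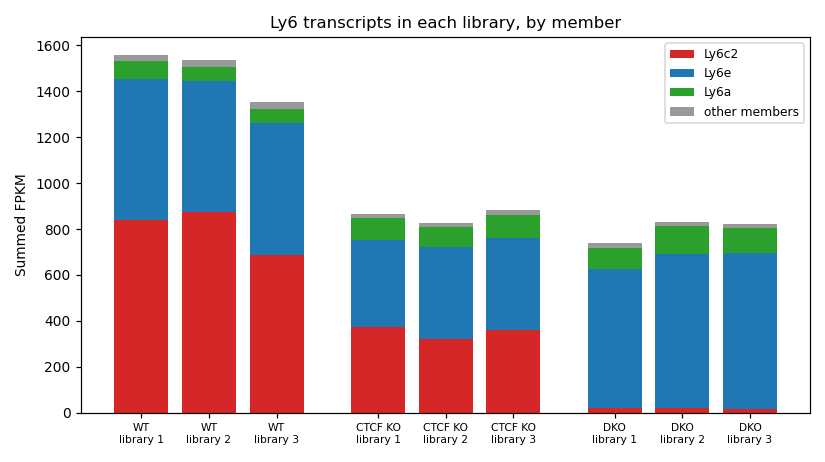
Summed FPKM (linear axis) of the Ly6 genes in each of the 9 libraries, stacked by Ly6c2, Ly6e, Ly6a and the 4 other members with a row. Ly6c2 is 53.8% of the WT bars on average and 2.46% of the DKO bars, in which Ly6e fills 81.6%.

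The members with a row lie on chromosome 15 in the order Ly6d, Ly6k, Ly6e, Ly6i, Ly6a, Ly6c1 and Ly6c2, from 74592485 to 74942379 in the coordinates of the deposited table. Those coordinates did not match GRCm38, and mm9 is the other build named in the submitters' processing notes. Neighbouring members did not change alike. Ly6a, which rose, starts 113 kb before Ly6c2, and Ly6e, which fell in CTCF KO, starts 153 kb before it. Ly6c1, at 64.1 kb, is the nearest member with a row and was not called in any comparison. Within 500 kb of the cluster were 21 rows of other genes, of which 4 reached 1 FPKM in a group and were tested, namely Arc, Jrk, Them6 and Gpihbp1. With limma 0 of the 4 were called in CTCF KO against WT, with log2 differences from -0.02 to 0.24, 0 at an unadjusted p under 0.05 and 0 by q-value in the authors' deposited table. In DKO against WT Them6 fell from 1.42 to 0.523 FPKM (log2 change -0.65, limma adjusted p = 0.0354), with a q-value of 0.0764 in the authors' deposited table. In DKO against CTCF KO 2 of the 4 fell, Arc (-0.68, limma adjusted p = 0.0452) and Them6 (-0.89, limma adjusted p = 0.0097). Of all tested genes, 12.2%, 40.4% and 38% were called in these comparisons. Jrk shares its span in the table with a second row, so its value is uncertain.

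**Figure D4:**
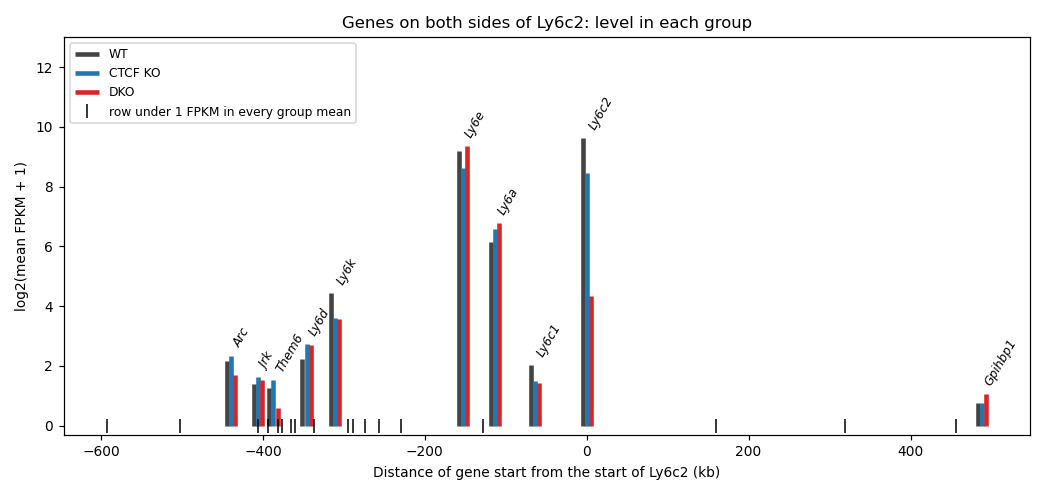
Mean level in each group, as log2(mean FPKM + 1), of the genes around Ly6c2 against the distance of their start from that of Ly6c2 in kb; the bars of a gene are set 5 kb apart for display, and ticks on the zero line are rows that stayed under 1 FPKM. Ly6e, Ly6a and Ly6c2 stand high within 153 kb, and only at Ly6c2 is the DKO bar far below the WT bar among these 3.

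The 5 genes whose log2(FPKM + 1) was most like that of Ly6c2 over the 9 libraries, among 7709 genes compared, were Stmn1 (Pearson r = 0.998), Gramd3 (0.998), Pbk (0.997), Brip1 (0.997) and Asf1b (0.996). Stmn1 was at 793, 490 and 79.0 FPKM in WT, CTCF KO and DKO. The likeness mostly restates the 3 group means, since the 9 libraries form 3 groups. For Ly6a the nearest were Lat (0.977), Slc37a1 (0.976), Baz2b (0.961), Cyb561d1 (0.960) and Paqr7 (0.957). For Ly6e they were Mdp1 (0.982), Ppp1r15a (0.982), Rcbtb2 (0.979), S100a10 (0.977) and Pdlim4 (0.976). Among the members themselves, Ly6c2 had r = -0.78 with Ly6a, 0.68 with Ly6k and -0.48 with Ly6e, and Ly6a had -0.87 with Ly6k and 0.04 with Ly6e. The members thus did not follow a common pattern over these libraries.

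Few relatives of the Ly6 fold outside the list were expressed. Of 37 such genes 29 had a row and 4 were tested, and 2 of them rose in CTCF KO and 0 fell by limma (3 above and 0 below at an unadjusted p under 0.05, and 2 called by q-value in the authors' deposited table). Plaur, the urokinase receptor, rose from 32.5 FPKM in WT to 70.9 in CTCF KO (log2 change 1.10, limma adjusted p = 0.000138) and to 41.2 in DKO (0.34, adjusted p = 0.0203). Ly6g5b rose from 4.89 to 10.1 FPKM in CTCF KO (0.92, limma adjusted p = 0.00246). In DKO 1 rose and 1 fell, the latter being Lypd6b, from 8.84 to 4.58 FPKM (-0.81, limma adjusted p = 0.00151). The share called was 50% of the 4 in each comparison with WT, against 12.2% of all tested genes in CTCF KO and 40.4% in DKO.

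The genes that build and attach the GPI anchor on which most members depend were mostly not called. Of 27 tested, 0 were called in CTCF KO against WT by limma (2 above and 1 below at an unadjusted p under 0.05, and 0 by q-value in the authors' deposited table), with a median log2 difference of 0.14. In DKO 3 rose and 2 fell, with a median of 0.02. Of all tested genes 12.2% were called in CTCF KO and 40.4% in DKO, against 0 and 18.5% of these 27. Mppe1, which trims the anchor after attachment, rose from 69.1 to 98.1 FPKM (log2 change 0.50, limma adjusted p = 0.000759), and Pigf, which helps add the phosphoethanolamine bridge, fell from 27.5 to 18.4 (-0.55, limma adjusted p = 0.00417). Of 11 tested lymphocyte genes for other GPI-anchored proteins, 1 rose and 3 fell in CTCF KO and 6 rose and 3 fell in DKO. In all, 36.4% of the 11 were called in CTCF KO and 81.8% in DKO, both above the shares of all tested genes. Nt5e, the ecto-enzyme CD73, rose in both, from 23.7 FPKM in WT to 39.4 and 53.9, and like Ly6e the antiviral tetherin gene Bst2 was lower in CTCF KO at 81.9 against 114 FPKM (-0.48, limma adjusted p = 0.008).

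Interferon genes, to which Ly6a, Ly6c2 and Ly6e are known to respond, were called in both directions. In both lists below, falls outnumbered rises in CTCF KO and rises outnumbered falls in DKO. Over all tested genes 5.78% rose and 6.37% fell in CTCF KO, and 18.5% rose and 21.9% fell in DKO. Of 14 genes of interferon receptors and signalling, 1 rose and 2 fell in CTCF KO, and 7 rose and 2 fell in DKO, with median log2 differences of -0.07 and 0.38. In all, 21.4% of the 14 were called in CTCF KO and 64.3% in DKO, against 12.2% and 40.4% of all tested genes. Ifng, which encodes interferon gamma, fell from 11.4 FPKM in WT to 2.15 in CTCF KO (limma adjusted p = 8.71e-05) and 2.41 in DKO (limma adjusted p = 1.94e-05). Its receptor chain gene Ifngr1 fell to 132 from 225 FPKM in CTCF KO (limma adjusted p = 0.000124), and Ifngr2 rose from 23.2 to 67.6 in DKO (limma adjusted p = 1.78e-06). Of 41 tested interferon-stimulated genes, 3 rose and 6 fell in CTCF KO (median -0.17), and 15 rose and 5 fell in DKO (median 0.11). Together 48.8% of them were called in DKO, near the 40.4% of all tested genes. Ifi27l2a fell from 888 to 399 FPKM in CTCF KO, and Irf7, a regulator of type I interferon genes, rose from 73.7 to 111 in CTCF KO and 157 in DKO.

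Genes for the surface and state markers that are read beside Ly6C on CD8 T cells included genes that fell in both comparisons with WT. Of 21, 3 rose and 8 fell in CTCF KO (median -0.19), where 5.78% of tested genes rose and 6.37% fell. In DKO 4 rose and 14 fell (median -0.65), where 18.5% rose and 21.9% fell. Cxcr3, a chemokine receptor of memory and effector cells, fell from 92.8 FPKM in WT to 20.2 in CTCF KO (limma adjusted p = 1.11e-06) and 19.5 in DKO (limma adjusted p = 1.26e-07). Il2rb, a subunit of the receptors for interleukins 2 and 15, fell to 94.5 FPKM in CTCF KO and 101 in DKO from 192 in WT (limma adjusted p = 2.85e-05 and 7.16e-06). Tbx21, which encodes T-bet, fell from 30.9 to 8.44 FPKM in CTCF KO (limma adjusted p = 6.69e-06). Tbx21 was at 20.5 to 23.3 FPKM in the DKO libraries, below every WT library. Dapl1 had the same group order as Ly6c2, at 437, 296 and 22.7 FPKM in WT, CTCF KO and DKO. Igfbp4 and Cd5 were higher in CTCF KO than in WT and lower in DKO. Igfbp4 was at 217, 387 and 46.8 FPKM in WT, CTCF KO and DKO, and Cd5 at 110, 148 and 62.05. The 4 genes that rose in DKO are not named here. Ccr7, which guides naive cells into lymph nodes, rose from 508 to 599 FPKM in CTCF KO (limma adjusted p = 0.0403) and fell to 275 in DKO (limma adjusted p = 6.71e-06).

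**Figure D5:**
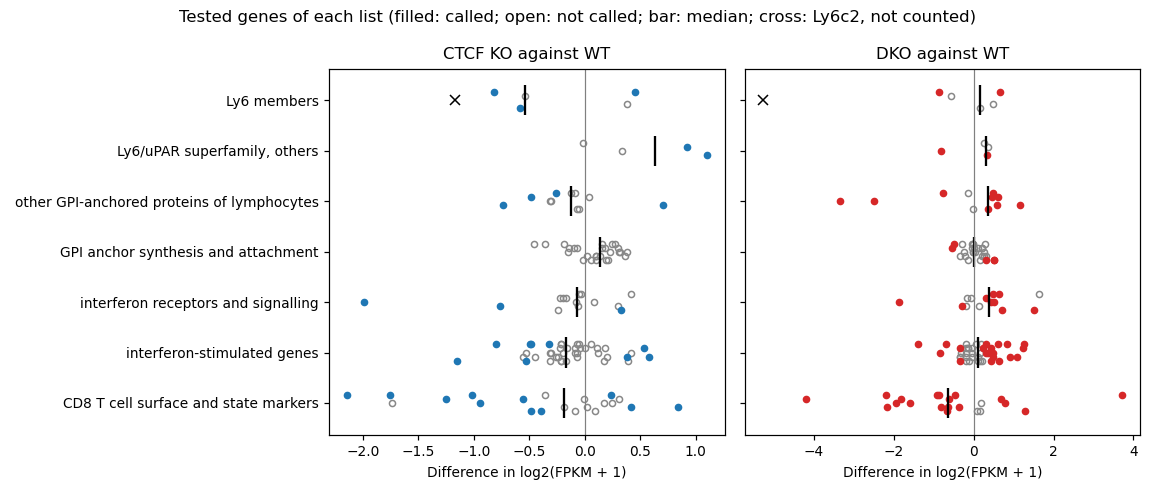
Differences in log2(FPKM + 1) of the tested genes in each list against WT, CTCF KO on the left and DKO on the right, with filled points for called genes, open points for the rest, bars for medians and a cross for Ly6c2, which is not counted. The Ly6 members spread on both sides of 0 in both panels, with Ly6c2 at -5.28 in DKO, and the surface and state markers have medians of -0.19 and -0.65.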

How the data were processed

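RNA-seq of 9 mouse CD8 T cell libraries was read from a table in which the authors deposited FPKM per gene and library, with p-values and q-values of the authors' own comparisons. The submitters' processing notes name FastQC, TopHat2 2.1.0, Cuffdiff 2.2.1 and both mm9 and mm10; scaling, annotation and read length are not given in the sources used here. Of 22655 genes matched by symbol, 925 started within 1000 bases of the GRCm38 start, so the table's positions are not on GRCm38. The DKO columns were tied to their group only, since its labels number the libraries in 2 ways.

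The 10172 genes that reached 1 FPKM in 3 or more libraries were tested on log2(FPKM + 1), a scale that understates changes of low genes, with limma 3.58.1 in R 4.3.3. The model had 1 mean per group over all 9 libraries and empirical Bayes moderation with an intensity trend. Tests were two-sided, with Benjamini-Hochberg adjustment across the 10172 genes. Genes with an adjusted p under 0.05 were called. The fit was tested on simulated data. Sequences came from RefSeq (GRCm38.p6) and GENCODE, and were aligned with Biopython 1.88.

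The members and the 16 other gene lists were chosen with earlier results of these data known. The rule for named genes took all members, the targeted genes, up to 4 called genes per list by adjusted p (otherwise the 2 most abundant), expressed genes within 500 kb, and the 5 genes most like Ly6c2, Ly6a and Ly6e. Only some of the genes it gives are printed. The B cell and plasma cell marker lists are not reported here. Alternatives were other pseudocounts, filters, scalings and variance models, each library left out in turn, a replicate block, the authors' q-values, and, added after seeing the data, removal of each library's trend with transcript GC content.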

Additional observations from a re-analysis of the deposited data

How the results depend on the processing

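The 255 recomputed member differences included those of Ly6c2, which chose the family (16 in CTCF KO against WT, 15 in each DKO comparison). Of the 255, 236 kept their direction and their side of the threshold, 9 lost a call, 4 gained one and 6 changed sign. All those of Ly6c2 were among the 236, and they are a description only. Those that changed sign were all uncalled, in DKO against CTCF KO, and arose on leaving out a library: Ly6c1 (-0.03) became 0.22 without CTCF KO library 1, 0.01 without DKO library 2 and 0.07 without DKO library 3, Ly6d (0.11) became -0.34 without CTCF KO library 2, and Ly6k (-0.05) became 0.01 without CTCF KO library 2 and 0.05 without DKO library 3; the ranges over all such omissions were -0.21 to 0.22, -0.34 to 0.46 and -0.15 to 0.05. Leaving out each library in turn gave 763 to 962 called genes in CTCF KO against WT (1236 with all), with 812 without CTCF KO library 2, 807 without CTCF KO library 3 and 763 without WT library 2. In each of these fits Ly6e and Ly6k stayed called in CTCF KO against WT, and Ly6a stayed called only without WT library 1. The deviations of same-numbered WT and CTCF KO libraries correlated at -0.619, 0.158 and -0.447, and those of differently numbered ones at -0.351 to 0.617. With 3 libraries per group these values cannot show whether the numbers mark pairs. With library number as a replicate block, 297 genes were called in CTCF KO against WT, against 981 in the same 6 libraries without it. Among members other than Ly6c2, Ly6e stayed called with the block (limma adjusted p = 0.0316), and Ly6a (0.0976) and Ly6k (0.051) lost their call. No paired analysis was possible because the DKO columns carry no number tied to a sample, for DKO against WT and DKO against CTCF KO. Ly6a in DKO against CTCF KO was called with quantile normalization (0.28, limma adjusted p = 0.0462). The cause of these changes was not tested. Without counts, the counting error of the low members Ly6c1, Ly6d and Ly6i is unknown.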
